A study of Mus musculus and Canis lupus familiaris with 12 samples.

Results

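The 33 genes described here carry glucose into the cell, break it down to pyruvate and lactate, and move lactate out again. They were given as a list of names and matched to the gene symbols of a mouse and a dog count table regardless of case, with mouse Gpi1 taken as GPI in dog. All 33 had a row among the 78317 rows of the mouse table, and 28 had one among the 30424 rows of the dog table. Aldoa, Pgam1, Pkm, Ldha and Pdhb had no dog row under their symbol and were not analysed here in dog.

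RNA-seq had been run on 2 cell lines labelled osteosarcoma and wild type, the mouse line DLM8 and the dog line Gracie. Cells of each line were plated overnight and then given fresh medium with 50 nM omacetaxine (OMX) for 6 h or kept as controls, with 3 libraries per group and 12 in all. The labels call the controls untreated, while the treatment protocol names DMSO. The culture medium of both lines was DMEM with serum, glutamine and pyruvate, and the labels do not give its glucose. Omacetaxine, first isolated from plum yew, binds the large ribosomal subunit and stops translation early in elongation.

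Glucose enters cells through transporters of the GLUT family, is trapped by hexokinase and is split by a chain of enzymes into pyruvate, with phosphofructokinase as the main point of control. Pyruvate then either enters mitochondria through pyruvate dehydrogenase or is reduced to lactate, which leaves through the monocarboxylate transporters. Many tumours, osteosarcoma among them, make lactate at a high rate even with oxygen present. Transcription factors known to drive these genes are HIF-1, which binds hypoxia response elements with the core ACGTG or GCGTG, and MYC, which binds the E-box CACGTG.

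Promoter windows are shown for Slc2a1, Hk2, Pgam1 and Slc16a3, the genes of the list with the 4 largest falls in DLM8, and for Eno2, with the largest rise. They were chosen with those values known. Each window, from RefSeq, runs 5′ to 3′ along the gene from 250 bases before its start to 50 bases after it. Capitals mark ACGTG and GCGTG on either strand, so that CACGT and CACGC are the same motifs read on the opposite strand.
Slc2a1 (GRCm38.p6, chr4:119108495-119108794, plus strand): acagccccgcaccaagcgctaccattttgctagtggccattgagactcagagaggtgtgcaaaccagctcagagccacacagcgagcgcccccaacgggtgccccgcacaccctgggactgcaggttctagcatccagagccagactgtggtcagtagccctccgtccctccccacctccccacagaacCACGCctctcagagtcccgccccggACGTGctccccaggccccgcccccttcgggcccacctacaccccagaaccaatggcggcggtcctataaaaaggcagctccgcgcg
Hk2 (GRCm38.p6, chr6:82774405-82774704, minus strand): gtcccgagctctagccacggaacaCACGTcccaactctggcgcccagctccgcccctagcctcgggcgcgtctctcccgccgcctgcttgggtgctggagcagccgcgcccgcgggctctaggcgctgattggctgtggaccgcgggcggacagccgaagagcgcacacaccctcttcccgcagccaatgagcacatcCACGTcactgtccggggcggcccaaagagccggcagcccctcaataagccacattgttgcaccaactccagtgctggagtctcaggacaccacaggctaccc
Pgam1 (GRCm38.p6, chr19:41911621-41911920, plus strand): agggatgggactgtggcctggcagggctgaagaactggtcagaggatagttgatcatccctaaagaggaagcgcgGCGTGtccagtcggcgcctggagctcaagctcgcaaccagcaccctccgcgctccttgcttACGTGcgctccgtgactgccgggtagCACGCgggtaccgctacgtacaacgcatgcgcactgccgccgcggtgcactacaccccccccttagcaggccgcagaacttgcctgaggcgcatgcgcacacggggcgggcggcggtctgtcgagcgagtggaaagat
Slc16a3 (GRCm38.p6, chr11:120948817-120949116, plus strand): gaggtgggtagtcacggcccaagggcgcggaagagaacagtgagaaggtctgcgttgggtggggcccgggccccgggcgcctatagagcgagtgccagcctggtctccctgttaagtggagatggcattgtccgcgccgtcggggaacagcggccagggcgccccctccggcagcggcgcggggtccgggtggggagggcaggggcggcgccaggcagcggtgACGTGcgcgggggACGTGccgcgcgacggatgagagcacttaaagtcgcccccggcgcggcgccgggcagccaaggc
Eno2 (GRCm38.p6, chr6:124769624-124769923, minus strand): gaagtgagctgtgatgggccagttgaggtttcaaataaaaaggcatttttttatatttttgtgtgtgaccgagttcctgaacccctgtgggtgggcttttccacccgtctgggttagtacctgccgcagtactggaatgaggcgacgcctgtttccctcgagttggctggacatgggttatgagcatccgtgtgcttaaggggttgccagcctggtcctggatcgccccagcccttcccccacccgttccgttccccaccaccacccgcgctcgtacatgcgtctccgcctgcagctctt
These letters occurred in the windows of the 4 genes that fell and not in that of Eno2. The RefSeq table held 47 windows for 31 of the 33 genes (none for Slc2a3 and Bsg). ACGTG on either strand was in 51.1% of them, against 19.6% of all 32851 mouse windows and 25.7% of the 12392 windows of genes tested in DLM8. For GCGTG on either strand the shares were 53.2%, 32.4% and 49.5%, and for CACGTG, which always contains ACGTG, they were 12.8%, 7.15% and 9.72%. The median GC content of these sets was 61.3%, 52.7% and 60.7%. By gene, 10 of the 17 genes called lower in DLM8 that had a window held ACGTG, as did 2 of the 3 called higher (Pfkfb2 and Pfkfb3) and 6 of the 9 not called. A match describes the letters of a window and shows no binding.

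The libraries held 9099313 to 11392715 counts in DLM8 and 2385102 to 3381831 in Gracie. The rows of the 33 genes took 0.231% to 0.295% of the counts in untreated DLM8 libraries and 0.134% to 0.148% with OMX. Rows of genes on the opposite strand are not in these shares. That of Tlcd3b, opposite Aldoa, alone held 134002 counts over the 6 DLM8 libraries. Whether the shares hold all mRNA of these genes was not tested. In Gracie the rows of the 28 genes took 0.517% to 0.816% untreated and 0.323% to 0.394% with OMX. In bulk RNA, fewer cells of a kind and less RNA per cell cannot be told apart. Whether the replicates came from separate cultures is not stated, and the spread behind each p-value may therefore be technical only. Replicate 1 stood apart from replicates 2 and 3 in every group, with a chi-square per gene of 10.0 to 25.7 against 5.18 to 7.6 between replicates 2 and 3.

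In DLM8 31 of the 33 genes had enough counts to be tested, of which 18 were lower with OMX, 3 were higher (Eno2, Pfkfb2 and Pfkfb3) and 10 were not called. The call is an adjusted p under 0.05 by edgeR's quasi-likelihood test, adjusted over all genes tested. Among all 17109 genes tested, 15.9% were lower and 19.4% higher (35.3% either way). The share of the listed genes called lower (58.1%) was above that background. Their list was chosen with earlier results of these data known, so this excess is not an independent result. At 2-fold or more 15 were lower and 3 higher, against 7.53% and 13.9% of all genes. Untreated and OMX libraries were fully separated in 24 of the 31, and the same held for 49.0% of all genes. Their median log2 fold change was -0.91, and that of all genes was 0.02. In Gracie all 28 genes with a row were tested, 9 were lower, 4 higher (SLC16A3, PFKFB3, PFKFB4 and PDK2) and 15 not called, 14 of them with a negative value. Of all 10423 genes tested in Gracie 8.06% were lower and 12.5% higher (20.6% either way). At 2-fold or more 5 were lower and 4 higher, against 5.19% and 10.1% of all genes, and the groups did not overlap in 12, against 39.7%. The median was -0.62 in these genes and -0.01 in all genes. Gracie calls depended on single libraries: without OMX replicate 2 only 3 of these genes were lower and 2 higher, and without untreated replicate 2 the counts were 5 and 2.

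**Figure D1:**
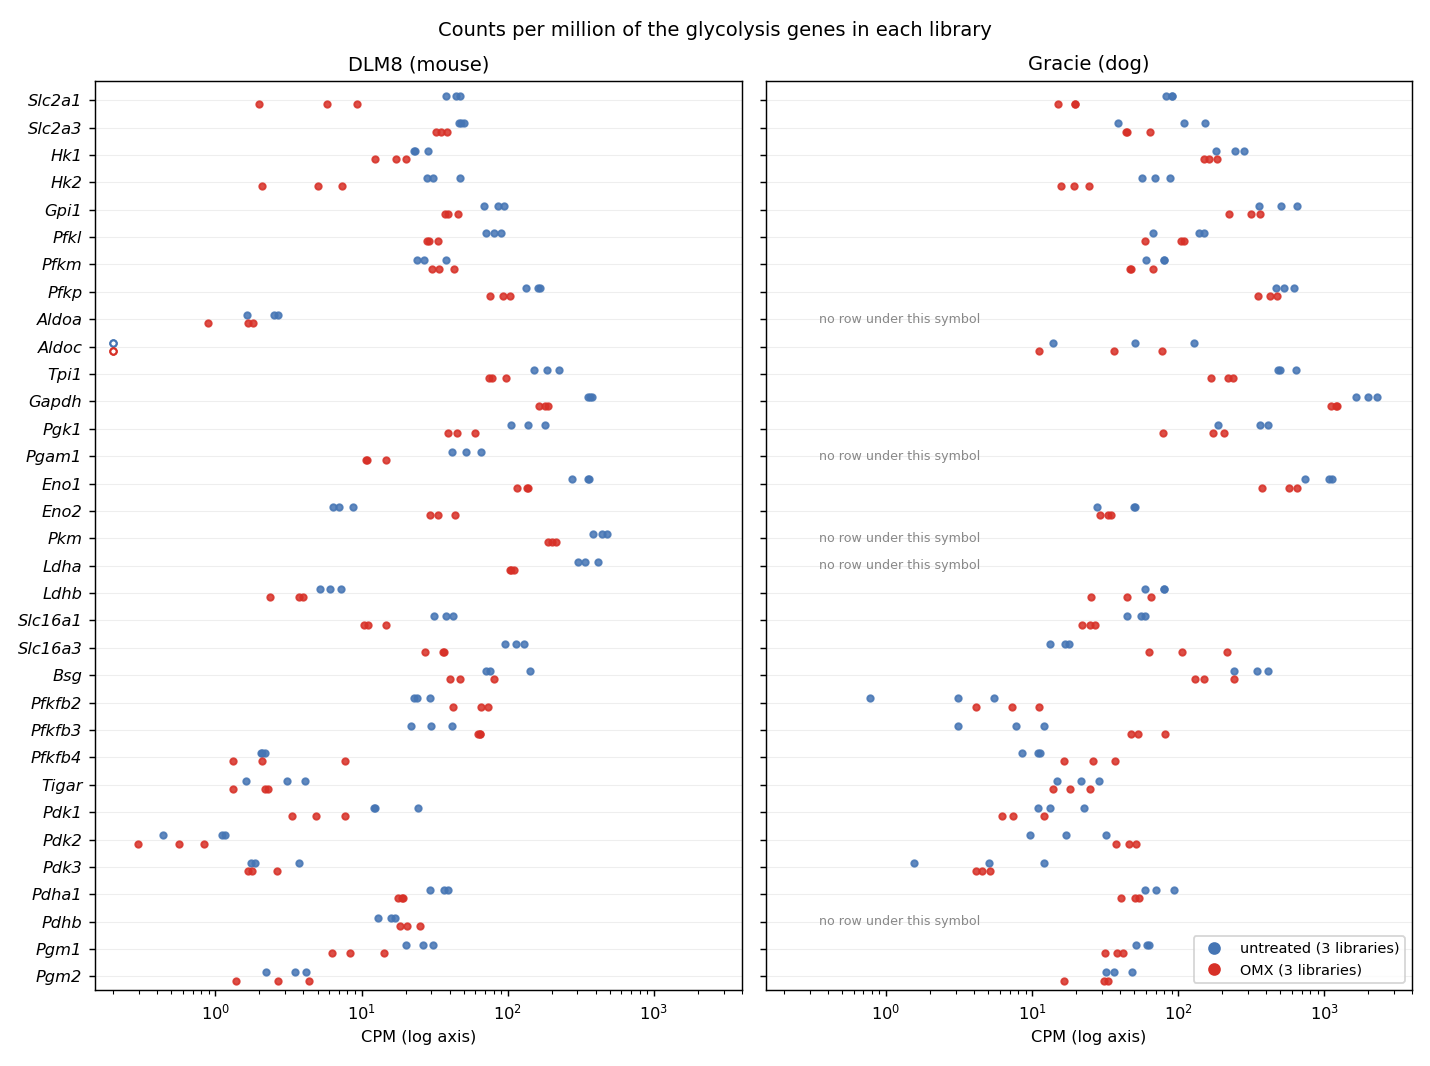
CPM (counts scaled to library size, log axis) of each gene in the 3 untreated (blue) and 3 OMX (red) libraries of DLM8 (left) and Gracie (right), with open points for a gene at 0 counts. Most genes sat lower with OMX, while Eno2 in DLM8, SLC16A3 in Gracie and Pfkfb3 in both lines sat higher in all 3 OMX libraries.

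Both glucose transporters of the list were lower in DLM8 and 1 of them was lower in Gracie. Slc2a1 (ENSMUSG00000028645) encodes GLUT1, the widespread transporter of basal glucose uptake. Levels are given as CPM, counts scaled to the library size. Its row held 47.0, 44.5 and 38.1 CPM in the untreated DLM8 libraries 1, 2 and 3 and 1.98, 9.25 and 5.81 CPM in the OMX libraries. The groups lay far apart, a 7.6-fold difference of the means (log2 fold change -2.92, SE 0.38, adjusted p = 0.000109). The row of Gm12868, on the opposite strand, held 5.79 times the counts of this row and changed by -4.41. The size of the fall thus depends on the row read. In Gracie SLC2A1 (ENSCAFG00000002500) went from 90.6, 90.7 and 82.4 CPM to 19.7, 15.1 and 19.5 CPM, again without overlap (-2.28, SE 0.24, adjusted p = 3.3e-05). The difference between the lines, -0.64 (SE 0.47), did not exceed the library spread (adjusted p = 0.415). Slc2a3 encodes GLUT3, a transporter of high affinity. It held 49.9, 46.1 and 48.2 CPM in untreated DLM8 cells and 38.4, 35.03 and 32.1 CPM with OMX, a small gap between groups that did not overlap (-0.45, SE 0.16, adjusted p = 0.0408). That call was lost with scaling by library size alone (adjusted p = 0.154), without a filter on low counts (0.0674), without untreated replicate 1 (0.0907), 2 (0.0824) or 3 (0.0949), and without OMX replicate 2 (0.102) or 3 (0.115). In Gracie SLC2A3 held 153, 110 and 38.7 CPM untreated and 43.9, 63.5 and 44.6 CPM with OMX. Untreated replicate 3 lay below all OMX libraries, the gene was not called (-0.99, adjusted p = 0.0799), and without that library it was (adjusted p = 0.00356). SLC2A3 was also called lower with scaling by library size alone (0.0481) and without a filter on low counts (0.00156).

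Of the enzymes that turn glucose into triose phosphates, 5 of 8 tested genes were lower in DLM8 and 3 of 8 in Gracie, and 0 were higher in either. Hk2, the inducible hexokinase that binds to mitochondria, held 47.3, 27.8 and 30.7 CPM untreated and 7.31, 5.00 and 2.08 CPM with OMX in DLM8. The lowest untreated library was above the highest OMX library by a wide margin (-2.87, SE 0.37, adjusted p = 9.73e-05). In Gracie HK2 held 87.1, 68.9 and 56.1 CPM untreated and 24.6, 15.7 and 19.2 CPM with OMX, again without overlap (-1.84, SE 0.28, adjusted p = 0.000447). Hk1, the constitutive hexokinase, was not called in either line (DLM8 -0.59, adjusted p = 0.0554, and Gracie -0.50, adjusted p = 0.106). Hk1 was called lower in DLM8 without OMX replicate 1 (adjusted p = 0.0136) and with upper-quartile scaling (0.0361). The same held without a filter on low counts (0.046) and with the replicate number as a block (0.0224). In Gracie HK1 was called lower without untreated replicate 3 (0.0461) and with scaling by library size alone (0.0498). Gpi1, which converts glucose 6-phosphate to fructose 6-phosphate, held 93.9, 86.1 and 68.3 CPM untreated and 45.4, 37.2 and 38.9 CPM with OMX in DLM8, without overlap (-1.03, SE 0.17, adjusted p = 0.000546). In Gracie GPI was lower by a call near the threshold (-0.74, SE 0.24, adjusted p = 0.0452), with overlapping groups. That call was lost without untreated replicate 1 (adjusted p = 0.0914) or 2 (0.115) and without OMX replicate 2 (0.132) or 3 (0.162).

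Of the 3 phosphofructokinase genes, 2 were lower in DLM8. Pfkl, the liver-type subunit, held 90.2, 80.0 and 70.9 CPM in untreated DLM8 cells and 33.3, 27.9 and 28.9 CPM with OMX. Both groups were tight and apart (-1.42, SE 0.16, adjusted p = 4.1e-05). Pfkp, the platelet-type subunit, fell less (-0.75, SE 0.15, adjusted p = 0.00267), and Pfkm, the muscle type, was not called, with groups that overlapped (0.27, adjusted p = 0.344). In Gracie none of the 3 was called (PFKL -0.37, PFKM -0.44 and PFKP -0.37, adjusted p from 0.19 to 0.42). Tpi1, which interconverts both triose phosphates, went from 224, 186 and 152 CPM to 97.6, 78.3 and 74.1 CPM in DLM8 (-1.17, SE 0.17, adjusted p = 0.000229). In Gracie TPI1 went from 637, 496 and 484 CPM to 238, 218 and 166 CPM (-1.38, SE 0.21, adjusted p = 0.000436). All OMX libraries were below all untreated ones in both lines. For the aldolases, which split fructose bisphosphate, the rows were of little use. The Aldoa row held 65 counts over the untreated and 44 over the OMX libraries of DLM8 and was not called (-0.65, adjusted p = 0.373), and Aldoc was at 0 counts in all 6, where 3 counts would be 0.263 to 0.33 CPM. ALDOC in Gracie ranged from 13.9 to 127 CPM untreated and from 11.1 to 77.6 CPM with OMX and was not called (-0.63, adjusted p = 0.526).

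In the pay-off phase, from glyceraldehyde phosphate to pyruvate, 5 of 6 genes were lower in DLM8 and 1 was higher. Gapdh, which oxidises glyceraldehyde phosphate and is widely used as a reference gene, held 378, 368 and 353 CPM untreated and 164, 179 and 188 CPM with OMX in DLM8. It fell 2.07-fold with no overlap (-1.05, SE 0.11, adjusted p = 2.78e-05). In Gracie GAPDH held 2275, 1994 and 1641 CPM untreated and 1220, 1208 and 1104 CPM with OMX, a 1.67-fold fall (-0.74, SE 0.18, adjusted p = 0.00897) whose call was lost without OMX replicate 2 (adjusted p = 0.053). Pgk1, the first ATP-making step, held 181, 137 and 106 CPM untreated and 59.9, 44.9 and 38.9 CPM with OMX in DLM8 (-1.56, SE 0.21, adjusted p = 0.000159). The Pgk1 groups did not overlap. PGK1 in Gracie held 408, 359 and 186 CPM untreated and 204, 173 and 78.2 CPM with OMX (-1.07, SE 0.34, adjusted p = 0.037). There OMX replicate 1 lay above untreated replicate 3, and the call was lost without untreated replicate 1 (adjusted p = 0.0661) or 2 (0.126) or OMX replicate 2 (0.0908) or 3 (0.115). Pgam1, phosphoglycerate mutase, went from 65.4, 51.5 and 41.6 CPM to 14.6, 10.95 and 10.8 CPM in DLM8, a 4.36-fold fall (-2.12, SE 0.22, adjusted p = 1.8e-05). Pkm, pyruvate kinase, held 482, 443 and 381 CPM untreated and 213, 201 and 187 CPM with OMX in DLM8, with groups far apart (-1.12, SE 0.12, adjusted p = 3.35e-05).

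The enolases, which make phosphoenolpyruvate, moved in opposite directions in DLM8. Eno1, the widespread form, held 353, 358 and 277 CPM untreated and 135, 139 and 115 CPM with OMX (-1.35, SE 0.14, adjusted p = 1.92e-05). Eno2, the form known from neurons, held 6.41, 8.77 and 6.97 CPM untreated and 43.5, 29.2 and 33.4 CPM with OMX. It rose 4.79-fold, with every OMX library more than any untreated one (2.26, SE 0.23, adjusted p = 1.63e-05). In Gracie ENO1 fell (-0.87, SE 0.23, adjusted p = 0.0165), a call lost without untreated replicate 2 (adjusted p = 0.0753), or without OMX replicate 2 (0.0625) or 3 (0.066). ENO2 in Gracie held 49.6, 27.6 and 50.3 CPM untreated and 34.5, 29.1 and 33.2 CPM with OMX, with overlapping groups and no call (-0.40, adjusted p = 0.349). Eno1b, a near-identical copy of Eno1 whose reads can be mistaken for it, held 1884 counts, 14.1% of those of Eno1, and also fell (-0.99, SE 0.19, adjusted p = 0.00184). Pseudogene rows named for Aldoa, Gapdh, Pgk1, Pgam1, Ldha and Ldhb held 0 to 12 counts each over the 6 DLM8 libraries.

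Of the 5 genes of lactate production and export 3 fell in DLM8, and in Gracie 2 of 4 fell and 1 rose. Ldha, the lactate dehydrogenase subunit that favours lactate formation, held 413, 339 and 303 CPM untreated and 111, 105 and 103 CPM with OMX in DLM8, a 3.3-fold fall (-1.72, SE 0.14, adjusted p = 2.6e-06). No other gene of the list had a smaller p in DLM8. Ldhb, the heart-type subunit, was not called (DLM8 -0.87, adjusted p = 0.0743, and Gracie -0.68, adjusted p = 0.133). LDHB was called lower in Gracie without OMX replicate 3 (adjusted p = 0.0421) and with the replicate number as a block (0.0413). Slc16a1 encodes MCT1, which moves lactate in either direction. It held 42.2, 37.9 and 31.4 CPM untreated and 14.6, 10.4 and 11.005 CPM with OMX in DLM8 (-1.63, SE 0.21, adjusted p = 9.89e-05). In Gracie SLC16A1 went from 55.8, 58.8 and 44.5 CPM to 27.1, 21.8 and 24.8 CPM, without overlap (-1.11, SE 0.26, adjusted p = 0.00742), a call lost without OMX replicate 2 (adjusted p = 0.0522). Slc16a3 encodes MCT4, the main lactate exporter of highly glycolytic cells. In DLM8 it held 129, 114 and 95.3 CPM untreated and 27.2, 36.7 and 36.2 CPM with OMX, all OMX libraries being lower (-1.76, SE 0.18, adjusted p = 1.5e-05). In Gracie SLC16A3 held 17.8, 13.2 and 16.6 CPM untreated and 215, 107 and 62.6 CPM with OMX. All 3 OMX libraries were higher, OMX replicate 1 most, and the 8.06-fold rise (3.00, SE 0.39, adjusted p = 0.000162) came to 2.39 on the log2 scale without that library, still called. Bsg encodes basigin, the chaperone that brings both transporters to the membrane. BSG fell in Gracie (-0.94, SE 0.26, adjusted p = 0.0206), where untreated replicate 3 and OMX replicate 1 both held 240 CPM and the call was lost without untreated replicate 2 (adjusted p = 0.0736), or without OMX replicate 2 (0.115) or 3 (0.0849). In DLM8 Bsg was not called (-0.79, adjusted p = 0.0532), and it was called lower without untreated replicate 3 (0.0376) or OMX replicate 1 (0.00303), without a filter on low counts (2.91e-05), by DESeq2 (0.0187), with upper-quartile scaling (0.0385) and on halved counts (0.0482).

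**Figure D2:**
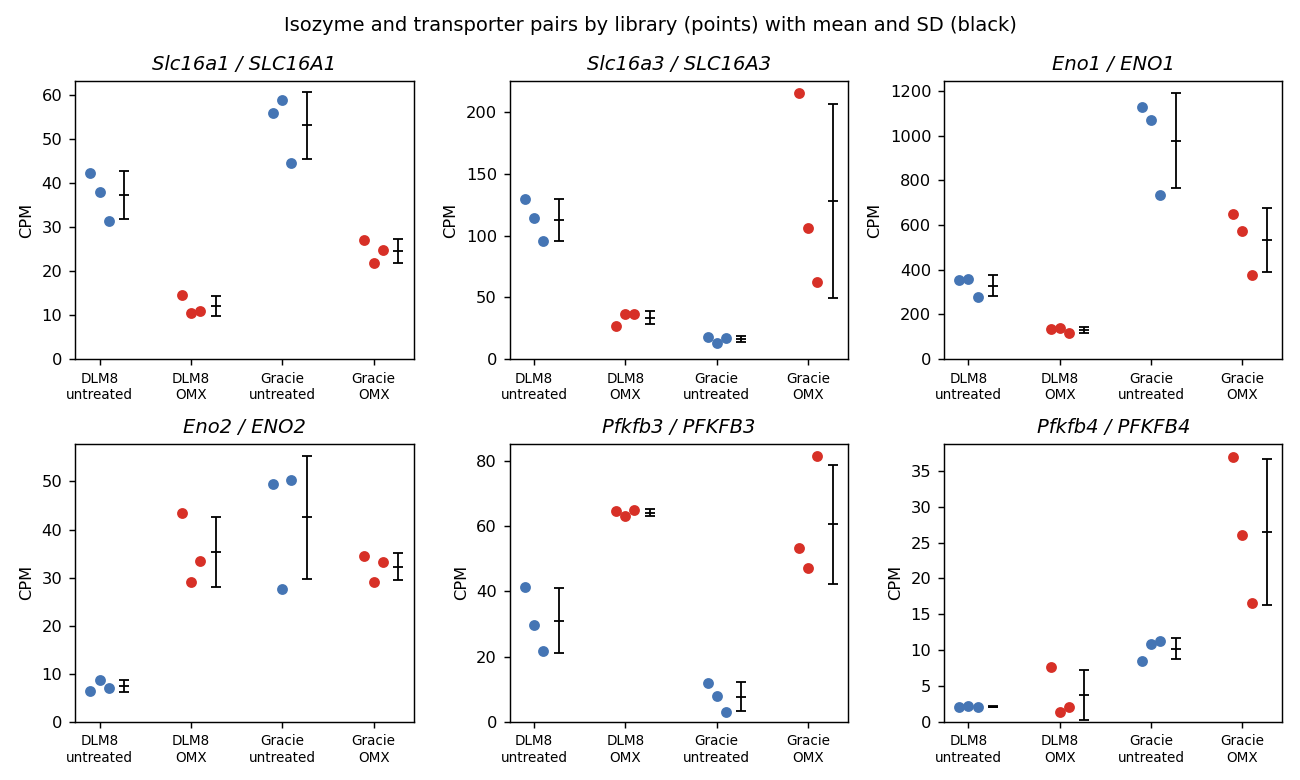
CPM of both monocarboxylate transporters, both enolases and a pair of PFKFB enzymes in each library (points) of the 4 groups, with the mean and SD (black, n = 3). SLC16A3 rose in Gracie and fell in DLM8, and Eno2 rose in DLM8 alone by call, while Eno1 and Slc16a1 fell in both lines.

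The bifunctional PFKFB enzymes set the level of fructose 2,6-bisphosphate, the strongest activator of phosphofructokinase, and 2 of the 3 genes were called higher in each line. Pfkfb3, the inducible form with the highest kinase activity, held 41.5, 29.8 and 21.8 CPM untreated and 64.6, 63.1 and 65.0 CPM with OMX in DLM8. The OMX libraries were close together and above all untreated ones (1.04, SE 0.21, adjusted p = 0.00235). In Gracie PFKFB3 held 12.005, 7.79 and 3.096 CPM untreated and 53.4, 47.2 and 81.5 CPM with OMX, a 7.95-fold rise without overlap (2.98, SE 0.41, adjusted p = 0.000225). Pfkfb2, the heart-type form, held 22.8, 23.8 and 29.5 CPM untreated and 42.2, 66.2 and 72.8 CPM with OMX in DLM8 (1.25, SE 0.22, adjusted p = 0.00084). PFKFB2 in Gracie rested on 24 untreated and 68 OMX counts and was not called (1.26, SE 0.73, adjusted p = 0.243). For Pfkfb4, a hypoxia-inducible form, the values in DLM8 were 2.04, 2.19 and 2.09 CPM untreated and 7.70, 1.32 and 2.08 CPM with OMX. Only OMX replicate 1 was high, the gene was not called (0.81, adjusted p = 0.327), and without that library its value was -0.33. PFKFB4 in Gracie held 8.52, 10.9 and 11.2 CPM untreated and 36.9, 26.0 and 16.6 CPM with OMX, without overlap (1.37, SE 0.39, adjusted p = 0.0225). That call was lost without untreated replicate 2 (adjusted p = 0.0613), or without OMX replicate 1 (0.122) or 2 (0.0745). Tigar, a phosphatase that lowers fructose 2,6-bisphosphate, was not called in either line (DLM8 -0.61, Gracie -0.19).

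At the entry of pyruvate into mitochondria, 2 of 4 tested genes were lower in DLM8 and 1 of 4 was higher in Gracie, and no difference between the lines was called for Pdk1 (-0.77, adjusted p = 0.444), Pdk3 (0.17, adjusted p = 0.931) or Pdha1 (-0.29, adjusted p = 0.606). Pdk1, a kinase that switches the complex off, held 24.3, 12.3 and 12.2 CPM untreated and 7.70, 4.91 and 3.32 CPM with OMX in DLM8. The groups did not overlap, and untreated replicate 1 was the highest (-1.61, SE 0.36, adjusted p = 0.00459). PDK1 in Gracie was not called (-0.85, adjusted p = 0.213). PDK2, the kinase form found in most tissues, held 31.8, 17.1 and 9.68 CPM untreated and 46.0, 51.4 and 37.5 CPM with OMX in Gracie, all OMX libraries being higher (1.20, SE 0.37, adjusted p = 0.0334). This call was lost with scaling by library size alone (adjusted p = 0.0599), without untreated replicate 2 (0.123) or 3 (0.0915), and without OMX replicate 1 (0.0922), 2 (0.133) or 3 (0.053). Pdk2 in DLM8 had 26 untreated and 17 OMX counts and was not tested. Pdk3 was not called in either line (DLM8 -0.26, Gracie -0.42). Pdha1, the catalytic alpha subunit, fell in DLM8 (-0.91, SE 0.18, adjusted p = 0.00223), Pdhb, the beta subunit, was not called there (0.48, adjusted p = 0.1), and PDHA1 in Gracie was not called (-0.62, adjusted p = 0.0895). With scaling by library size alone Pdhb was called higher in DLM8 (adjusted p = 0.0386). In mouse the row of Map3k15, on the opposite strand from Pdha1, held 20.9 times the counts of Pdha1.

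Phosphoglucomutases link glycolysis to glycogen. Pgm1 held 30.6, 26.2 and 19.99 CPM untreated and 6.32, 8.31 and 14.3 CPM with OMX in DLM8, without overlap (-1.41, SE 0.30, adjusted p = 0.00289). In Gracie PGM1 was not called (-0.66, adjusted p = 0.0664), and without untreated replicate 1 it was called lower (adjusted p = 0.0454). PGM1 was also called lower with scaling by library size alone (0.0382) and with the replicate number as a block (0.0496). Pgm2 was not called in either line (DLM8 -0.23, Gracie -0.52). In mouse the row of Itgb3bp, on the opposite strand from Pgm1, held 19.7 times the counts of Pgm1.

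**Figure D3:**
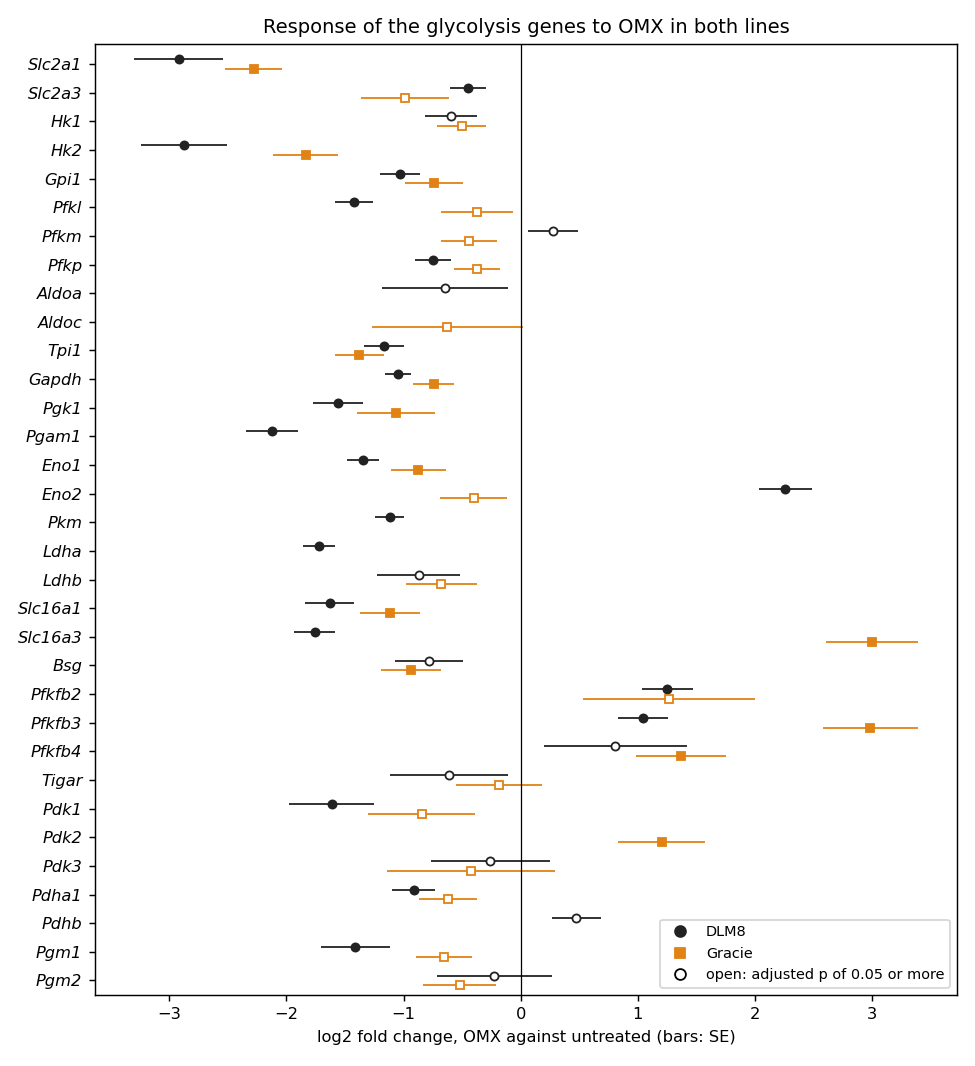
Log2 fold change with OMX against untreated (x axis, bars show the SE) of each gene in DLM8 (circles) and Gracie (squares), open where the adjusted p was 0.05 or more. The 3 PFKFB genes lay to the right in both lines, Slc16a3 lay on opposite sides, and most other genes lay to the left.

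The responses of both lines were then compared over the 26 genes tested in both. Of these 8 were lower in both lines (Slc2a1, Hk2, Gpi1, Tpi1, Gapdh, Pgk1, Eno1 and Slc16a1), 1 was higher in both (Pfkfb3), 1 was called in opposite directions (Slc16a3) and 6 were called in neither. A further 6 were lower in DLM8 and not called in Gracie, and Bsg was the reverse. By the interaction of line and treatment, fitted with edgeR over 7567 genes shared by symbol, 3 of the 26 differed, 1 above and 2 below in DLM8, against 12.1% of all shared genes, 5.88% above and 6.18% below. The response of Slc16a3 was lower in DLM8 than in Gracie (difference of log2 fold changes -4.76, SE 0.47, adjusted p = 4.12e-06), or -4.15 without OMX replicate 1 of Gracie. The Pfkfb3 response was also lower in DLM8 (-1.94, SE 0.47, adjusted p = 0.00894), since it rose in both lines and more in Gracie. The Eno2 response was higher in DLM8 (2.66, SE 0.38, adjusted p = 0.00013). Hk2 (-1.03, adjusted p = 0.175), Pfkl (-1.05, adjusted p = 0.0818) and Pfkm (0.71, adjusted p = 0.186) had an unadjusted p under 0.05 and were not called. Pfkl was called without OMX replicate 3 of Gracie (adjusted p = 0.0336) and with the replicate number as a block (0.00731). Hk2 was called without OMX replicate 1 of DLM8 (0.0461). The median difference was -0.34 over the 26 genes and -0.12 over all shared genes. Lines differ in species, depth and annotation, which cannot be told apart in this difference.

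A row is not certain to hold the mRNA of its gene. The mouse table was compared with GENCODE M21, which is of another build than the table and served only to find genes that overlap on the opposite strand, here called facing genes. Of the 33 genes 17 faced no annotated gene, 2 faced a gene without a row, and 14 faced a gene with a row. In 5 of these 14 the facing row held more counts than the gene's own. The row of Tlcd3b, facing Aldoa, held 134002 counts against 109 in the Aldoa row, and fell from a mean of 2940 to 1619 CPM (-0.86, SE 0.12, adjusted p = 0.000205). Gm12868, facing Slc2a1, held 5.79 times its counts and fell by 4.41 (SE 0.20, adjusted p = 3.04e-08). Itgb3bp, facing Pgm1, held 19.7 times its counts (-1.28, SE 0.11, adjusted p = 5.55e-06), and Map3k15, facing Pdha1, 20.9 times (-0.69, SE 0.11, adjusted p = 0.000459). Platr31, facing Tigar, held 6.83 times as many counts without a call (-0.57, adjusted p = 0.053). The values of all 5 pairs were negative in both rows. Among smaller facing rows, Iffo1, facing Gapdh with 0.0311 times its counts, rose (1.19, SE 0.28, adjusted p = 0.00577) while Gapdh fell. Hk1os and Hk1 also differed in sign, with neither called. Pitrm1 fell with Pfkp, Spsb2 fell with Tpi1 and Yod1 rose with Pfkfb2. Senp1 and Pfkm were both positive without a call.

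With facing rows added to those of the genes they face, 20 of the 31 genes were lower and 3 higher in DLM8. Aldoa (-0.86, adjusted p = 0.000206) and Tigar (-0.57, adjusted p = 0.0345) were then called lower, and Slc2a1 came to -4.09. In all of these the facing row held more counts than the gene's own. Their sums therefore mostly repeat the facing rows, and which gene of each pair those counts came from was not tested. Among genes that face no annotated gene, 10 of 16 tested were lower and 1 (Eno2) was higher. The strand setting, which was not given, applied to these genes too, so their count cannot test it. Which strand was counted was not tested here, and dog gene positions were not used.

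**Figure D4:**
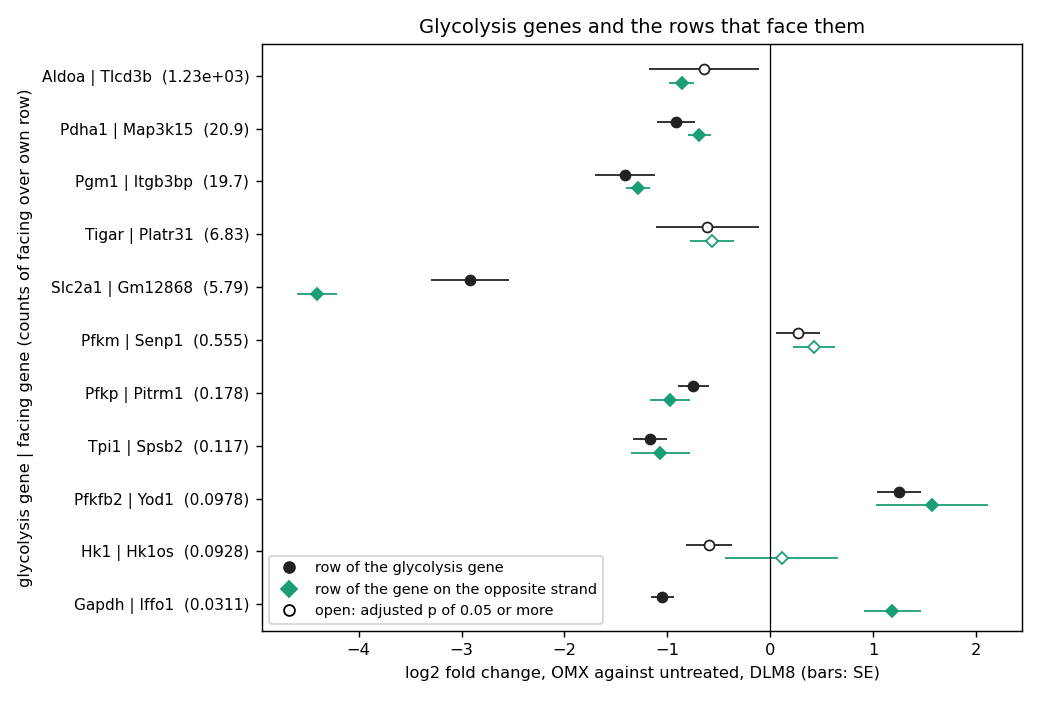
Log2 fold change with OMX in DLM8 (x axis, bars show the SE) of 11 glycolysis genes (black circles) and of the gene on the opposite strand (green diamonds), with the ratio of their counts in brackets, open where the adjusted p was 0.05 or more. Both rows lay on the same side of 0 in 9 pairs, and the rows of Gapdh and Hk1 parted from those of Iffo1 and Hk1os.

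Routes that branch from glycolysis were taken from lists chosen with earlier results of these data known. Their counts stand beside 15.9% lower and 19.4% higher among all genes of DLM8, which the shares called lower in glycogen metabolism and higher in pyruvate entry were near. In DLM8 6 of 10 pentose phosphate genes were lower and 1 higher (median log2 fold change -0.90), among them Pgd (-1.30, SE 0.17), G6pdx, the entry enzyme (-1.50, SE 0.29), and H6pd (-1.93, SE 0.47). Of 6 genes of the serine branch 5 were lower (Psat1, Mthfd2, Shmt2, Psph and Phgdh; median -0.85), with Psat1 at -1.76 (SE 0.23). Of 16 genes of the TCA cycle 9 were lower and 0 higher (median -0.59), and the calls of 3 held without any 1 library, Ogdh (-1.20, SE 0.19), Cs (-0.80, SE 0.18) and Idh3a (-0.999, SE 0.26). In the malate-aspartate shuttle 3 of 6 were lower (Got1, Got2 and Slc25a13), in glycogen metabolism 3 of 13 (Gys1, glycogen synthase, at -1.37, SE 0.19, Ppp1r3b and Phka2), and in gluconeogenesis both genes tested (Pck2 at -2.03, SE 0.26, and G6pc3). Beyond the pyruvate dehydrogenase genes already given, 2 of 10 genes of pyruvate entry were higher and 1 (Pcx) lower. Pdk4, a kinase that switches the complex off, rose from 11.1, 14.0 and 20.5 CPM to 58.2, 60.2 and 64.8 CPM (2.01, SE 0.22, adjusted p = 2.82e-05), and Mpc1 was the other. Further isoforms of the pathway split into 5 higher and 4 lower of 17 (median 0.32), with Slc2a6 (1.99, SE 0.37), Gpd1l (-1.41, SE 0.29) and Slc16a8 (1.67, SE 0.35) at the smallest p. In the hexosamine route, Gfpt2 went from 6 to 104 counts over the 3 libraries while Gfpt1 and Ogt were lower. Among the genes named so far, the call of Got1 was lost without 1 library (OMX replicate 2, adjusted p = 0.0561), as were those of Ogt (untreated replicate 2, 0.0591, or OMX replicate 3, 0.0619) and Phgdh (untreated replicate 2, 0.0525, or 3, 0.0503, or OMX replicate 2, 0.0577). Gfpt1 lost its call without untreated replicate 2 or 3 or OMX replicate 2 or 3 (0.0527 to 0.129), Phka2 without untreated replicate 1 or 3 or OMX replicate 2 or 3 (0.0549 to 0.151), Ppp1r3b without any untreated library or OMX replicate 2 (0.0509 to 0.101), and Mpc1 without any library but OMX replicate 1 (0.0531 to 0.106). Of the 9 TCA cycle calls 6 were lost without at least 1 library: Fh1 (untreated replicate 2, 0.0837, or OMX replicate 3, 0.0621), Mdh2 (untreated replicate 3 or OMX replicate 2 or 3, 0.0527 to 0.0785), Sdhc (untreated replicate 2 or 3 or OMX replicate 2, 0.0684 to 0.106), Suclg2 (all but untreated replicate 1 and OMX replicate 2, 0.0577 to 0.0883), Suclg1 (all but OMX replicate 3, 0.0513 to 0.16) and Idh3g (all but OMX replicate 1, 0.0782 to 0.127). Of the 7 pentose phosphate calls 4 were lost: Rpia (OMX replicate 2, 0.0642), Prps1 (untreated replicate 2 or 3 or OMX replicate 3, 0.0529 to 0.0643), Rpe (untreated replicate 1 or 2 or OMX replicate 2 or 3, 0.0542 to 0.116) and Tkt (all but untreated replicate 3, 0.0525 to 0.201). Of the further isoforms, Pgam2 (untreated replicate 2, 0.0506) and Slc2a8 (untreated replicate 3, 0.0528) lost theirs. Slc2a12 lost its call without untreated replicate 1 or 2 or OMX replicate 2 or 3 (0.0525 to 0.113). By DESeq2 Mpc1 (adjusted p = 0.0582), Idh3g (0.0525), Suclg1 (0.0722), Tkt (0.0568) and Phka2 (0.0503) were not called. Scaling by library size alone lost Slc2a12, Idh3g, Suclg1, Suclg2, Sdhc, Mdh2, Tkt, Phka2, Ppp1r3b, Gfpt1 and Phgdh (0.0569 to 0.131). Mpc1, Idh3g, Suclg1 and Sdhc were lost without a filter on low counts (0.0593 to 0.0958).

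In Gracie the counts of these routes stand beside 8.06% lower and 12.5% higher among all genes. By edgeR 0 of 7 pentose phosphate genes (median -0.51) and 0 of 6 shuttle genes (median -0.18) were called, with 3 and 0 of them at an unadjusted p under 0.05. In the hexosamine route 4 of 7 were higher (GFPT2, from 2 to 74 counts, PGM3, GNPNAT1 and OGA) and GFPT1 was lower (-1.18, SE 0.28), with PGM3 at 0.90 (SE 0.20). In the serine branch PSAT1 (-1.42, SE 0.27) and SHMT2 were lower and SHMT1 was higher (0.92, SE 0.21). Single genes lower in other routes were ADPGK (-1.83, SE 0.24), GAPDHS (-1.69, SE 0.34), EMB, PDPR (-1.48, SE 0.32), PYGB (-0.83, SE 0.19), FH and SUCLG2. By DESeq2 OGA (adjusted p = 0.0556), GNPNAT1 (0.0529), SUCLG2 (0.0766) and EMB (0.0515) were not called. Scaling by library size alone lost the calls of OGA (0.107) and GNPNAT1 (0.0748). That of OGA was also lost with upper-quartile scaling (0.0534) and without a filter on low counts (0.0528). SUCLG2 lost its call without that filter (0.0695) and with the replicate number as a block (0.0538). Without OMX replicate 2 the call of GFPT1 was lost (adjusted p = 0.0539). SHMT2 lost its call without untreated replicate 2 or 3 or OMX replicate 1 or 2 (0.0579 to 0.109), FH and OGA without any library but untreated replicate 1 (0.0508 to 0.22), as did SUCLG2 (0.0906 to 0.145) and GNPNAT1 (0.0596 to 0.132), and EMB without any 1 library (0.051 to 0.126).

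Of 13 genes that regulate the pathway, 4 were higher and 1 lower in DLM8, and 2 of 10 were higher and 1 lower in Gracie, against 19.4% and 15.9% of all genes in DLM8 and 12.5% and 8.06% in Gracie. With so few genes these counts are near the background. TXNIP, which holds back glucose uptake, and its relative ARRDC4 are induced by the glucose sensor MondoA. Txnip rose from 7.43, 8.33 and 6.51 CPM to 103, 147 and 168 CPM (4.23, SE 0.22, adjusted p = 8.16e-08) and Arrdc4 by 2.65 (SE 0.31) in DLM8, and in Gracie TXNIP went from 23 to 2428 counts and ARRDC4 from 2 to 255. Myc (1.27, SE 0.19) and Mlxip (0.95, SE 0.24), the gene of MondoA, were also higher in DLM8, the latter not without untreated replicate 3 (adjusted p = 0.0502), and MYC was not called in Gracie (0.52, adjusted p = 0.19). Egln1, an oxygen-sensing hydroxylase that marks HIF-1 for decay and is itself induced by HIF-1, fell in DLM8 (-2.55, SE 0.33, adjusted p = 0.000108). In Gracie EGLN1 fell by 1.60 (SE 0.42, adjusted p = 0.0149), a call lost without untreated replicate 2 (adjusted p = 0.0702), or without OMX replicate 2 (0.0774) or 3 (0.0531). Hif1a was not called in either line (DLM8 -0.37, adjusted p = 0.19, and Gracie -0.47, adjusted p = 0.125).

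Markers of the cell types were read beside these results. In DLM8 all 10 osteoblast lineage markers had counts, Ibsp only 2, and their summed level was 2117 to 2920 CPM untreated and 897 to 1344 CPM with OMX. Alpl, Col1a1, Col1a2, Spp1 and Sparc were among the genes called lower, Sparc not without untreated replicate 1 (adjusted p = 0.0533), or without OMX replicate 2 (0.0592). In Gracie the 9 markers with a row summed to 153 to 257 CPM untreated and 115 to 138 CPM with OMX, and ALPL, SPP1 and IBSP, defining markers of osteoblasts, were at 0 counts untreated and at 12, 2 and 2 counts with OMX, while SP7 was higher (2.35) and SPARC lower (-2.15) with OMX. Leukocyte markers summed to 118 to 126 CPM untreated and 125 to 210 CPM with OMX in DLM8, nearly all from Csf1r, with Ptprc at 2 counts. In Gracie they summed to 4.67 to 5.03 and 3.69 to 11.1 CPM, with PTPRC and CD3E at 0. Endothelial markers summed to at most 0.0928 CPM untreated and 1.38 to 5.502 CPM with OMX in DLM8, where Cdh5 went from 0 to 99 counts and Kdr was at 0, and to 2.32 to 3.11 and 4.24 to 12.4 CPM in Gracie. Epithelial markers summed to at most 1.28 CPM in DLM8, with Epcam at 0, and were at 0 in Gracie. In DLM8 the osteoblast markers were lower together with the glycolysis genes (5 of 9 tested, median -0.85), and in Gracie their median was 0.06. Their part in the results was not tested.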

How the data were processed

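Poly(A)-selected RNA was sequenced from both cell lines with the Universal Plus mRNA-Seq kit, per the labels' protocols. The authors deposited unnormalized read counts for each gene. Builds named in the submitters' processing notes are mm39, GRCm39 and CanFam3.1, and the tools named there are featureCounts, Subread and STAR. Tool versions, strand setting and pair handling were not given in the sources used here, nor was multi-mapping. Even numbers made up 72.6% of the nonzero counts in DLM8 and 70.0% in Gracie, so fits on halved counts were also run. Every column was matched to a sample by its library name (0 were left unmatched). Genes without a symbol, with 29.2% to 33.1% of the DLM8 and 24.8% to 36.4% of the Gracie counts, stayed in the tests.

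Fits were made separately for each line with edgeR 4.0.16 under R 4.3.3, using filterByExpr, TMM scaling, the quasi-likelihood F-test and Benjamini-Hochberg adjustment over all genes tested, with calls at an adjusted p under 0.05. Each SE was derived from the fold change and its F (size over root F). Levels in CPM rest on library sizes after TMM and are not per gene length, so levels were not compared between genes. The difference between lines was the interaction of line and treatment over genes shared by symbol, with scaling within each line. The procedure was checked on simulated data. Of genes changed 2-fold there, 28.3% were recovered in DLM8, 17.5% in Gracie and 7.14% in the difference between lines. At 4-fold the shares were 97.9%, 91.8% and 66%. A gene that was not called may thus still have changed 2-fold. Alternatives were other scalings, no filter, DESeq2 1.42.0, a replicate block, halved counts, leaving out each library, and adding facing rows. The members and all gene lists were chosen with earlier results of these data known. Values in every library are given for members called at 2-fold or more in a line, members that differed between lines and Gapdh. Slc2a3, Pfkfb4 and the Gracie rows of SLC2A3, ENO2, ALDOC and BSG were given by library or range after their values were seen. From other lists up to 3 genes with the smallest p are named, and all called genes where 5 or fewer were called.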

Additional observations from a re-analysis of the deposited data

Results flagged for a closer look

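The response to OMX differed between DLM8 and Gracie for 3 of the 26 genes tested in both, by the interaction test of edgeR, a share near the 12.1% called among all shared genes. The difference of the log2 fold changes, DLM8 minus Gracie, was 2.66 for Eno2, from 2.26 in DLM8 and -0.40 in Gracie (adjusted p = 0.00013), higher in 3 of 3 OMX libraries of DLM8. For Slc16a3 it was -4.76, from -1.76 in DLM8 and 3.00 in Gracie (adjusted p = 4.12e-06), with the OMX libraries on opposite sides of the untreated ones in both lines. For Pfkfb3 it was -1.94, from 1.04 and 2.98 (adjusted p = 0.00894), with 3 of 3 OMX libraries higher in each line. In mouse Pfkfb3 faces Gm10851, whose row held 0.0151 times its counts.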

How the results depend on the processing

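Of the calls among these genes, 20 of 21 in DLM8 (all but Slc2a3), 5 of 13 in Gracie (SLC2A1, HK2, TPI1, SLC16A3 and PFKFB3) and 3 of 3 between lines held in every alternative run. Of the genes called outside the list, 40 of 64 in DLM8 and 12 of 20 in Gracie did. Leaving out 1 library each gave 17 to 20 of these genes lower and 3 to 3 higher in DLM8, 3 to 11 lower and 2 to 4 higher in Gracie, and 2 to 3 lower and 1 to 1 higher in the difference. Over all genes it gave 2544 to 3682 higher and 1998 to 3206 lower in DLM8, 827 to 1462 and 395 to 925 in Gracie, and 324 to 474 and 313 to 547 in the difference. Genes that face no annotated gene gave 1 higher and 10 lower, a count over fewer genes that cannot test the strand setting. Scaling by library size alone moved the median of all genes by 0.14 in DLM8, -0.13 in Gracie and 0.28 in the difference. The share of calls that were higher went from 54.8% to 66.6%, 60.9% to 47.4% and 48.7% to 73%, and 241 genes in place of 468 were lower in the difference, of which the cause was not tested. These genes then counted 17 lower and 4 higher in DLM8 and 12 lower and 3 higher in Gracie.

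Signs turned, without 1 library, only for genes not called: Pfkfb4 (-0.33 to 1.20), Pdk3 (-0.51 to 0.15), Pgm2 (-0.70 to 0.083) and the facing row Hk1os (-0.22 to 0.43) in DLM8, and ALDOC (-1.45 to 0.35), PDK3 (-0.90 to 0.48) and TIGAR (-0.42 to 0.063) in Gracie. Deviations of same-numbered libraries correlated weakly, at 0.20, 0.04 and 0.11 in DLM8 and 0.13, -0.02 and 0.18 in Gracie. Differently numbered libraries gave -0.16 to 0.06 in DLM8 and -0.17 to 0.03 in Gracie. Whether the replicate numbers mark pairs is not stated and was not tested. With the replicate number as a block, 20 were lower and 3 higher in DLM8, 11 and 4 in Gracie, and 3 and 1 in the difference. The block also called Bsg in DLM8 (adjusted p = 0.000375), and the difference between lines for Pfkl (-1.07, adjusted p = 0.00731). Gracie libraries held 2385102 to 3381831 counts, which limits its calls for genes with few counts.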
